A study of Mus musculus with 27 samples.

Results

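Fat cells release stored triglyceride when catecholamines bind receptors on their surface. The 9 genes described here encode 3 of those receptors (Adrb1, Adrb3, Adra2a), the 3 lipases that act in sequence (Pnpla2, Lipe, Mgll), and 3 proteins that regulate the first steps (Abhd5, G0s2, Plin1). They were chosen by gene name, and all 9 of 9 were found among the 43460 names of the count table. RNA from epididymal white adipose tissue, a fat pad beside the testis, was sequenced from C57BL/6N mice in 27 libraries, 3 for each of 9 groups. The tissue lysates came from 60 to 70 mg of fat, per the labels' protocols.

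The groups differed in diet history and age. The initial group was 5 weeks old at the start of treatment. The control groups ate normal diet throughout: control8 (8 weeks of treatment, age 13 weeks), control12 (12 weeks, age 17) and control16 (16 weeks, age 21). Mice of gain8 were 13 weeks old after 8 weeks on high-fat chow, in which 60% of kcal was fat. The loss group was returned to normal diet for its last 4 weeks and was 17 weeks old, and the maintenance group spent its last 8 weeks on normal diet after the high-fat diet and was 21 weeks old. The regain group was fed the high-fat diet again for 4 weeks after weight loss, and the gain4 group ate it for 4 weeks, both to 21 weeks of age. The labels do not state the diet of gain4 before those 4 weeks, and the earlier 8 weeks of high-fat diet in loss, maintenance and regain follow from subtracting the last diet from the treatment period. No genetic change was named in any group. The labels do not say whether the 3 libraries of a group came from separate animals, and p-values then cover only the variation among them, which may be technical.

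As background, beta-adrenergic receptors raise cyclic AMP through a stimulatory G protein, and protein kinase A then phosphorylates perilipin and hormone-sensitive lipase. Phosphorylated perilipin lets go of ABHD5, which switches on adipose triglyceride lipase, while G0S2 holds that lipase back. Alpha-2 receptors act through an inhibitory G protein and lower cyclic AMP, and in rodents the beta-3 receptor is the main adrenergic receptor of white fat cells.

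Depth was 26479773 to 32728594 counts per library. The sum of 12 adipocyte markers ran from 17820 CPM (counts scaled to library size) in loss library 1 to 87653 CPM in the maintenance group. Loss library 1 also held the highest macrophage sum, 12004 CPM over 10 markers. Maintenance library 3 held 7417 CPM of 9 liver transcripts, against at most 120.0 CPM in any control library, and markers of epididymis and sperm reached 198.4 CPM in a control12 library. A transcript named Lars2 divided the libraries into 15 above and 12 below 1000 CPM, with libraries of both kinds in every group except initial, where all 3 were high. CPM here are scaled by the trimmed mean of M-values (TMM), and the calls that rest on maintenance library 3 or loss library 1 are given with and without them.

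The genes Pnpla2, Lipe, Abhd5 and G0s2 were called lower in regain than in maintenance by edgeR. Their promoters are shown because these calls had the same direction. The calls of Abhd5 and G0s2 were lost when maintenance library 3 alone was left out. The Pnpla2 call was kept in 8 of 15 alternative settings, against 9 for G0s2, 12 for Abhd5 and 14 for Lipe. The sequences come from RefSeq windows of 250 bases before the start site on GRCm38.p6. Of each window the longest stretch free of annotated exons is printed, 5′ to 3′ on the gene's strand. Capitals mark matches on either strand to the GC box GGGCGG, the cyclic AMP response half-site TGACG, the nuclear receptor half-site AGGTCA, the FoxO site GTAAACA, the E-box CACGTG or the TATA motif TATAAA. Neighbouring GC boxes may overlap. Windows were found for 8 of the 9 genes. Adrb3, also called lower in regain than in maintenance, had no window and was not searched. Lipe has a second window, not printed.

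Pnpla2 (chr7:141454938-141455187, plus strand): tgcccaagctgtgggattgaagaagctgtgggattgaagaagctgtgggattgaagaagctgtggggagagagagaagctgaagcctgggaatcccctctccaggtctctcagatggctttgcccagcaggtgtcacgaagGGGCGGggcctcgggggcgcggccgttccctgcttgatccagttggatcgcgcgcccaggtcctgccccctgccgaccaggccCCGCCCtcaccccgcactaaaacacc

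Lipe (chr7:25390113-25390351, minus strand): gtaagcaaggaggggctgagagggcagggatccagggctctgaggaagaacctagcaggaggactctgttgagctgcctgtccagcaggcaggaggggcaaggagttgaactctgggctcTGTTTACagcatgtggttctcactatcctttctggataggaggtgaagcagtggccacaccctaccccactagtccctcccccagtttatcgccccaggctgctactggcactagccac

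Abhd5 (chr9:122351366-122351607, plus strand): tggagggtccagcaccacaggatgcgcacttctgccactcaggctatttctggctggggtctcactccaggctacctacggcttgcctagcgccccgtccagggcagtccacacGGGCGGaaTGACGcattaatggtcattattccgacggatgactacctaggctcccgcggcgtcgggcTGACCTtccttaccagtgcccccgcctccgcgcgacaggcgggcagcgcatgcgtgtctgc

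G0s2 (chr1:193273218-193273337, minus strand): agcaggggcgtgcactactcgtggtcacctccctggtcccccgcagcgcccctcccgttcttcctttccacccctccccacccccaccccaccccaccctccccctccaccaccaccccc

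In the full 250-base windows of these genes a GC box was found for Pnpla2, Abhd5 and G0s2 and in the second Lipe window, and 32.7% of all 32851 windows held one. Windows of Adrb1, Adra2a and Mgll held a GC box too. A TGACG match was found for Abhd5 and G0s2, as in 17.8% of all windows, and also for Adrb1 and Adra2a. The AGGTCA match was in Abhd5 alone among the 8 genes with a window, against 14.0% of all windows. GTAAACA was in the printed Lipe window and in one of Mgll, against 3.17% of all windows, and TATAAA was in Adra2a alone, against 12.4%. The full response element TGACGTCA was in no window of these genes and in 1.55% of all windows. CACGTG, present in 6.02% of all windows, was in the second Lipe window, in Adra2a and in Mgll. No searched motif was shared by all 4 genes in the windows printed. With the full windows and the second Lipe window, the GC box was shared by all 4. These are matches of letters only.

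Levels per length, from the authors' deposited FPKM, placed the lipase and coat genes far above Adrb1 and Adra2a, with Adrb3 nearer to them. Pnpla2, encoding adipose triglyceride lipase, was highest with a median of 793 FPKM over the 27 libraries, followed by Plin1 at 526 FPKM, the coat protein of the fat droplet. Lipe (hormone-sensitive lipase), G0s2 and Mgll (monoglyceride lipase) lay together at medians of 366, 273 and 271 FPKM. Abhd5, the activator of Pnpla2's product, was at 31.3 FPKM, and Pnpla2 exceeded it per length in all 27 libraries, by 5.94 to 38.9 times. Pnpla2 also exceeded its inhibitor G0s2 per length in 26 of 27 libraries, the exception being maintenance library 3.

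Among the receptors Adrb3 stood at a median of 154 FPKM, Adrb1 at 1.63 FPKM and Adra2a at 0.254 FPKM. The FPKM ratio of Adrb3 to Adrb1 was between 21.6 and 422 in the 27 libraries, with a median of 70.2. It was 171 ± 15.2 (SD, n = 3) in control8, 42.2 ± 18.2 in gain8, 90.5 ± 18.7 in control16 and 29.5 ± 7.0 in regain, and Adrb3 exceeded Adrb1 per length in all 27 libraries. The plot of FPKM shows this order.

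**Figure D1:**
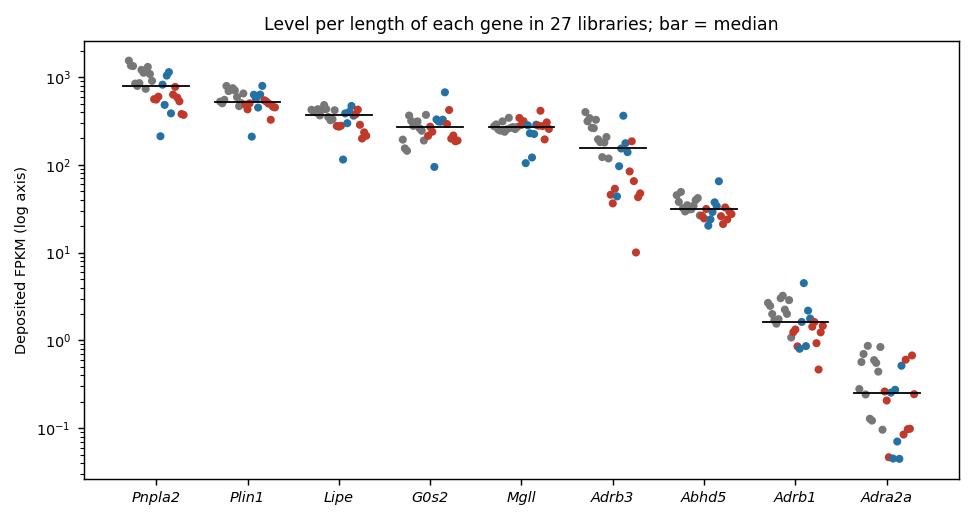
Deposited FPKM (log axis) of each gene in 27 libraries, 1 point per library (grey, initial and normal-diet controls; red, high-fat diet at sampling; blue, normal diet after high-fat diet) and a bar at the median. The lipases, Plin1, G0s2 and Adrb3 lie above 100 FPKM at the median, while Adrb1 and Adra2a lie near or below 2 FPKM.

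The genes lie on GRCm38 as follows in the GENCODE annotation. Adrb1 is at chr19:56722199-56733113 and Adra2a at chr19:54044151-54048982, both on the plus strand, and Adrb3 is at chr8:27225776-27250616 on the minus strand. Pnpla2 is at chr7:141455198-141460743 (plus), Lipe at chr7:25379527-25398710 (minus) and Plin1 at chr7:79720218-79732903 (minus). Mgll is at chr6:88724412-88828360 (plus), Abhd5 at chr9:122351608-122381524 (plus) and G0s2 at chr1:193272161-193273217 (minus). Antisense genes overlap exons of Adrb3 (24.9% of its exonic bases), Abhd5 (16.0%), Lipe (15.6%) and Mgll (3.29%). Whether counting used strand is not given in the sources used, and without strand, reads of the overlaps cannot be told apart. The overlapping partners of Lipe, Mgll and Abhd5 had at most 137, 189 and 15 counts in any library. No count was found under the name of the partner of Adrb3, Gm45470, so its share of the Adrb3 reads is unknown.

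Adrb3 had the widest range of the 9 genes, 39.3-fold from the lowest to the highest library in CPM. By group mean it was highest in initial, followed by control8, maintenance, control12, control16, gain4, loss, gain8 and regain, and each group in that order overlapped the next. On normal diet its levels were 1142, 873 and 971 CPM in initial, 718, 693 and 911 CPM in control8, 613, 549 and 317 CPM in control12, and 534, 558 and 348 CPM in control16. The older controls thus lay lower, but neither control8 against initial (log2 fold change -0.36 ± 0.47 SE, edgeR adjusted p = 0.755) nor control16 against control8 (-0.69 ± 0.47, adjusted p = 0.771) passed the test. In both comparisons none of the 9 genes was called at an adjusted p under 0.05, with backgrounds of 0.724% and 0.0168% of 17821 tested names called. At an unadjusted p under 0.05 there were 3 genes in the first (Pnpla2, Abhd5, G0s2), beside 2766 of 17821 names, and 0 in the second, beside 1538. DESeq2 and limma called 0 in both, although DESeq2 called 679 and 132 of all names.

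**Figure D2:**
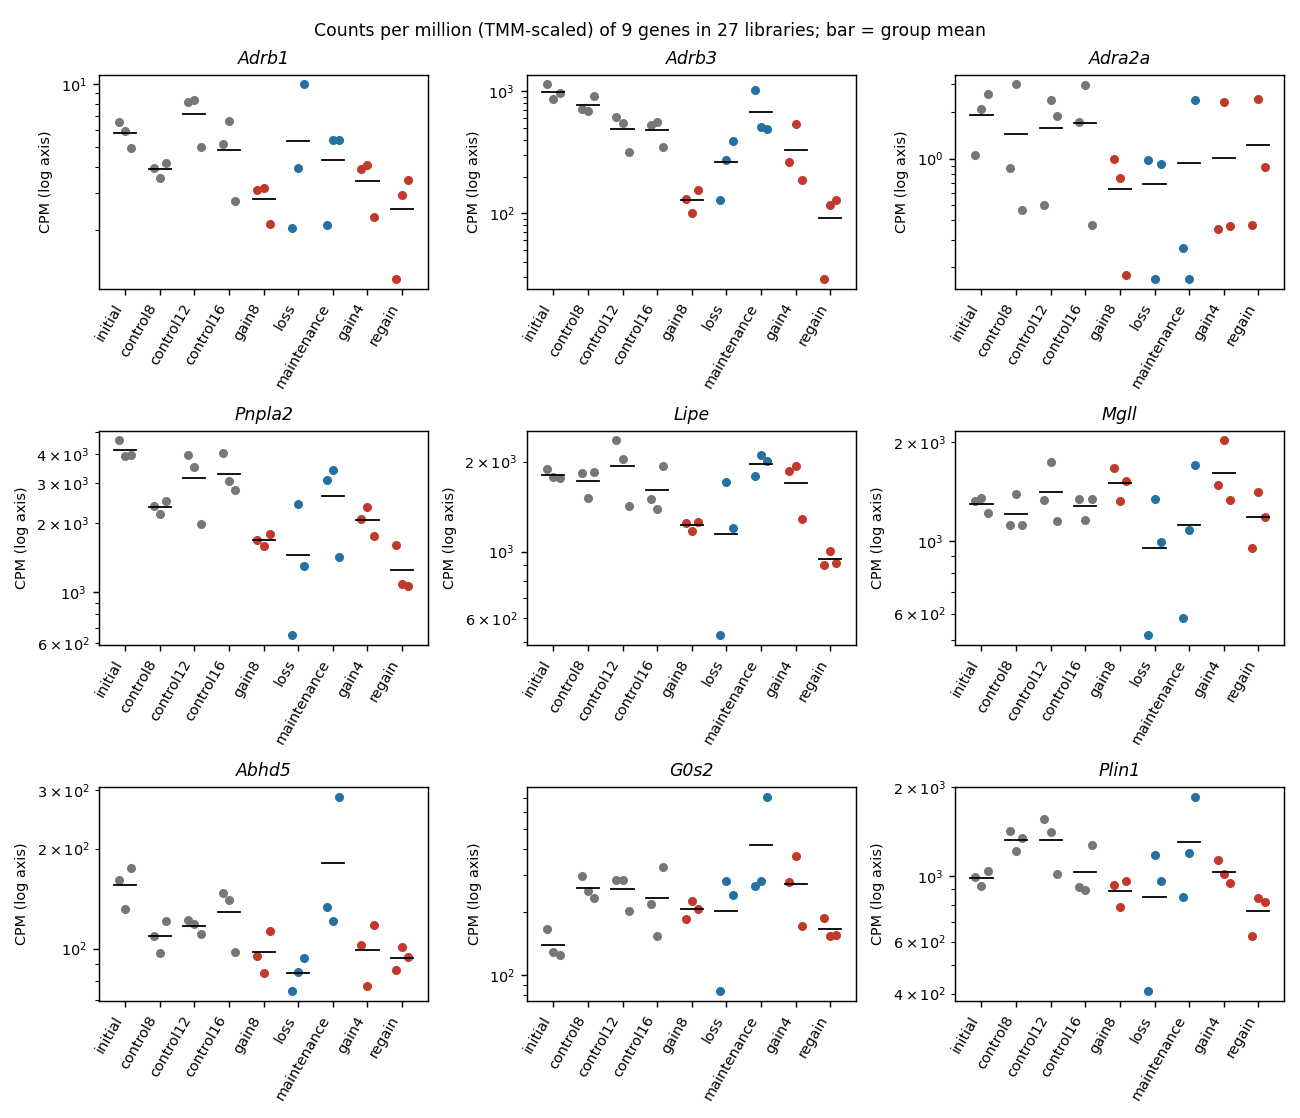
TMM-scaled CPM (log axis) of the 9 genes in each library, by group; points are libraries, bars are group means, and colours are as for the FPKM plot. Adrb3 in gain8 (100.3 to 154 CPM) and regain (29.1 to 130 CPM) lies below all 9 normal-diet control libraries.

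After 8 weeks of high-fat diet Adrb3 RNA was 6.01-fold lower. In the fit over all 27 libraries no lipase and no regulator passed the test. Pnpla2, Lipe and Plin1 passed in alternative fits given below. Adrb3 was at 132, 100.3 and 154 CPM in gain8, against 693 to 911 CPM in control8. The groups did not overlap, and the highest gain8 library was below every control library. The log2 fold change was -2.59 ± 0.50 (adjusted p = 0.00113, edgeR quasi-likelihood), and it was called under all 15 alternative settings, with log2 fold changes between -2.73 and -2.43. Within the high Lars2 set the difference in log2 CPM was -2.39 (1 library against 1), and within the low set it was -2.70 (2 against 2). In whole tissue, fewer cells of a type and less RNA per cell cannot be told apart.

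Adrb3 was 1 of the 9 genes called in gain8, where 21.5% of all tested names were called in either direction and 9.52% as lower. Of the 9 genes, 6 had gain8 libraries all below the controls, at a background of 23.1%, among them Lipe and Pnpla2. Pnpla2 was at 1691, 1595 and 1799 CPM in gain8, against 2386, 2185 and 2488 CPM in control8. Its log2 fold change was -0.47 ± 0.36 (adjusted p = 0.360). Lipe was at 1251, 1172 and 1256 CPM against 1825, 1510 and 1850 CPM (-0.49 ± 0.28, adjusted p = 0.209). Both lipases lay lower by about the same fold in these libraries, within an error that in this fit does not separate them from 0. Mgll was at 1665, 1323 and 1523 CPM against 1121, 1391 and 1118 CPM, with overlapping groups (0.31 ± 0.31, adjusted p = 0.503).

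None of the regulators was called in gain8 in the fit over all 27 libraries, although Plin1 and G0s2 lay below control8 in every library. Plin1 had a log2 fold change of -0.57 ± 0.29 (adjusted p = 0.168), G0s2 of -0.34 ± 0.39 (0.559) and Abhd5 of -0.16 ± 0.24 (0.670). Adrb1, at 3.09, 3.16 and 2.12 CPM against 3.95, 3.53 and 4.20 CPM, had -0.48 ± 0.48 (adjusted p = 0.500). When only the gain8 and control8 libraries entered the fit, 4 of the 9 genes were called, beside 5898 of 16375 names. Besides Adrb3 they were Pnpla2 (-0.48, edgeR adjusted p = 0.0209), Lipe (-0.51, 0.0220) and Plin1 (-0.58, 0.0133). Without maintenance 3, loss 1 and control12 3, which estimate the shared spread, 3 were called, beside 5591 of 17991 names. They were Adrb3, Lipe (-0.49, edgeR adjusted p = 0.0374) and Plin1 (-0.57, 0.0128). The adipocyte marker sum was 45910 to 49614 CPM in gain8 and 52041 to 75007 CPM in control8, with 3 of 12 markers called lower and 1 higher. The macrophage sum was 4422 to 4982 CPM against 1285 to 1752 CPM, with 7 of 10 called higher, and 6 of 9 tested epididymis and sperm markers were called lower; the part of these in the Adrb3 difference was not tested.

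**Figure D3:**
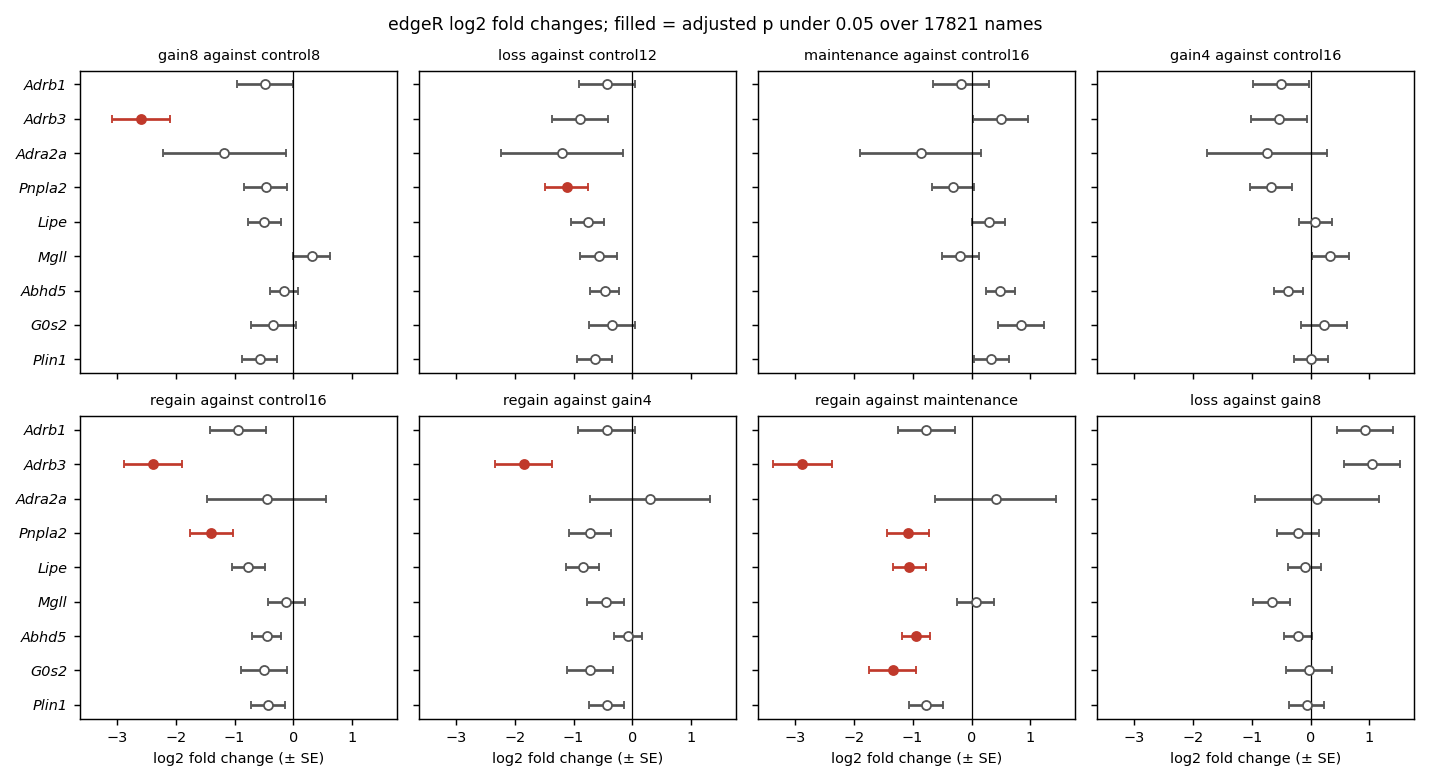
edgeR log2 fold changes (x axis, ± SE) of the 9 genes in 8 comparisons, filled where the adjusted p over all 17821 tested names is under 0.05. Adrb3 is filled in gain8, regain against control16, regain against gain4 and regain against maintenance, and Mgll, Plin1, Adrb1 and Adra2a are open throughout.

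In loss, after 4 weeks back on normal diet, Pnpla2 was the gene called. Adrb3 was not, although its log2 fold change had the same sign (-0.89 ± 0.47). Pnpla2 was at 649, 2425 and 1295 CPM in loss, against 3961, 3534 and 1984 CPM in control12. The groups overlapped, because loss library 2 lay above control12 library 3. The log2 fold change was -1.12 ± 0.36 (adjusted p = 0.0342), 1 of 9 genes called at a background of 20% of tested names in either direction and 8.24% as lower. The call was lost without loss 1 (-0.77, adjusted p = 0.198), loss 3 (-1.04, 0.0995), control12 1 (-0.93, 0.121) or control12 2 (-1.03, 0.0890). Within the high Lars2 set the difference in log2 CPM was -1.53 (2 against 2) and within the low set -0.71 (1 against 1).

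Adrb3 was at 128, 274 and 395 CPM in loss and 613, 549 and 317 CPM in control12, with a log2 fold change of -0.89 ± 0.47 (adjusted p = 0.184), or -0.56 without loss library 1. Loss library 1 was within the gain8 range, and loss library 3 within the control12 range. The loss effect on Adrb3 minus the gain8 effect was 1.69 ± 0.67 on the log2 scale (2.02 without loss library 1), with an unadjusted p of 0.0192 in edgeR and an adjusted p of 0.630. A difference of the 2 effects was therefore not called. None of the 9 genes was called for that difference, and 0% of all tested names were called. At an unadjusted p under 0.05 there was 1 of the 9, beside 1231 of 17821 names.

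Lipe had 527, 1707 and 1198 CPM in loss against 2352, 2037 and 1417 CPM (log2 fold change -0.76 ± 0.28, adjusted p = 0.0592). Plin1 (-0.64 ± 0.29, adjusted p = 0.124), Mgll (-0.57 ± 0.32, 0.205) and Abhd5 (-0.47 ± 0.24, 0.169) had values of the same sign. Without loss library 1 the log2 fold changes were -0.42 for Lipe (adjusted p = 0.288), -0.31 for Plin1, -0.28 for Mgll and -0.39 for Abhd5. Abhd5 was the one gene whose loss libraries, at 74.4, 84.8 and 93.5 CPM, all lay below control12, at 122, 118 and 111 CPM; groups lay apart in that direction for 17.1% of all tested names. Loss library 1 was the lowest of all 27 libraries for Pnpla2, Lipe, Mgll, Abhd5, G0s2 and Plin1. The adipocyte sum there was also the lowest, 17820 CPM against 33385 and 51696 CPM in the other two loss libraries. Over the group, 3 of 12 adipocyte markers were called lower than in control12 (43842 to 79753 CPM). The macrophage sum was 4321 to 12004 CPM in loss against 1318 to 1712 CPM in control12, with 7 of 10 markers called higher and 1 lower, and 4 of 9 tested epididymis and sperm markers were called lower. The part of these markers in the values of the 9 genes was not tested. Directly against gain8, no gene of the 9 was called in loss (background 0.0786%), and 0 by DESeq2 or limma, although DESeq2 called 246 of all names. At an unadjusted p under 0.05 there were 2, beside 2257 of 17821 names.

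After 8 weeks of normal diet, the maintenance libraries overlapped control16 for all 9 genes, while 15.7% of tested names had groups that lay apart. Adrb3 was at 1034, 505 and 492 CPM in maintenance and 534, 558 and 348 CPM in control16 (log2 fold change 0.50 ± 0.47, adjusted p = 0.579). Pnpla2 was at 3096, 3404 and 1422 CPM against 4050, 3041 and 2783 CPM (-0.32 ± 0.36, adjusted p = 0.650). Lipe was at 1793, 2096 and 2002 CPM against 1498, 1389 and 1928 CPM (0.29 ± 0.28, adjusted p = 0.583). None of the 9 was called, as for 0% of all tested names, with 1 at an unadjusted p under 0.05 (G0s2), as had 3633 of 17821 names, and 0 by DESeq2 or limma, although DESeq2 called 830 of all names. Missing the threshold does not show that the levels were equal.

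Maintenance library 3, the one with liver transcripts, stood apart for several of the genes. G0s2 was at 266, 282 and 713 CPM and Abhd5 at 134, 121 and 287 CPM, the third value being the highest of all 27 libraries in each case. The log2 fold change of G0s2 against control16 was 0.85 with that library and 0.27 without it (adjusted p = 0.770), that of Abhd5 0.49 and 0.03, and that of Pnpla2 -0.32 and 0.02. Plin1 in that library, 1854 CPM, was also the highest of 27. Pnpla2 in the same library was the lowest of its group. The count ratio of Pnpla2 to G0s2 was accordingly 2.0 there and 11.6 and 12.1 in the other two maintenance libraries.

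High-fat feeding for 4 weeks in gain4 gave no call among the 9 genes, at a background of 5.82%. At an unadjusted p under 0.05 there were 0, beside 4373 of 17821 names. DESeq2 and limma called 0 of the 9, although DESeq2 called 2105 of all names. Adrb3 varied widely, at 265, 541 and 187 CPM, and 1 of the 3 libraries lay within the control16 range (log2 fold change -0.54 ± 0.47, adjusted p = 0.507). Pnpla2 was at 2079, 2351 and 1750 CPM, all below control16 (-0.68 ± 0.36, adjusted p = 0.251), in a direction in which groups lay apart for 11.3% of tested names. Lipe (0.08 ± 0.28, adjusted p = 0.895) and Plin1 (0.01 ± 0.29, 0.997) were close to 0. The gain4 effect on Adrb3 minus the gain8 effect was 2.05 ± 0.67, with an unadjusted p of 0.00589 and an adjusted p of 0.467 in edgeR. These 2 effects differ in diet duration and in age as well, and no gene of the 9 was called, as for 0% of all names. At an unadjusted p under 0.05 there was 1 of the 9, beside 1519 of 17821 names.

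In regain, Adrb3 and Pnpla2 were the genes called lower than in control16. Adrb3 was at 29.1, 118 and 130 CPM, below all control16 libraries, and its log2 fold change was -2.38 ± 0.49 (adjusted p = 0.00163), or 5.20-fold lower. Regain library 1 held the lowest Adrb3 level of all 27 libraries. The call was kept under all 15 alternatives, with log2 fold changes from -2.70 to -1.94. Within the high Lars2 set the difference in log2 CPM was -2.14 (2 against 2) and within the low set -3.58 (1 against 1).

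Pnpla2 was at 1600, 1090 and 1061 CPM in regain against 4050, 3041 and 2783 CPM in control16. The groups did not overlap, as in this direction for 19.6% of tested names, and the log2 fold change was -1.40 ± 0.37 (adjusted p = 0.00920), or 2.63-fold lower. Within the high Lars2 set the difference in log2 CPM was -1.71 (2 against 2) and within the low set -0.80 (1 against 1). Without regain library 3 the adjusted p was 0.0514 at a log2 fold change of -1.29. Adrb3 and Pnpla2 made 2 of 9 genes called, at a background of 21.7% of tested names in either direction and 9.23% as lower. Lipe was at 901, 1009 and 918 CPM against 1498, 1389 and 1928 CPM, with no overlap (-0.77 ± 0.28, adjusted p = 0.0538). Without maintenance 3, loss 1 and control12 3, which are in neither group, 5 of the 9 were called, beside 5360 of 17991 names.

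None of the other genes was called in regain against control16. Mgll was at 949, 1411 and 1181 CPM against 1346, 1156 and 1341 CPM (log2 fold change -0.12 ± 0.31, adjusted p = 0.819), the smallest of the 9 differences in this comparison. Plin1 had -0.43 ± 0.29 (0.303), Abhd5 -0.45 ± 0.24 (0.190) and G0s2 -0.49 ± 0.39 (0.378). Plin1 lay below control16 in every regain library, and groups lay apart downwards for 4 of the 9 genes, at a background of 19.6%. Adrb1 was at 1.16, 2.93 and 3.45 CPM against 5.13, 6.65 and 2.74 CPM (-0.94 ± 0.48, adjusted p = 0.167). The adipocyte sum was 28802 to 40865 CPM in regain and 50586 to 71798 CPM in control16, with 5 of 12 markers called lower. The macrophage sum was 4634 to 8932 CPM against 1754 to 2254 CPM, with 8 of 10 markers called higher and 1 lower, and the part of neither was tested.

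The regain and maintenance groups were of equal age and both had earlier been on the high-fat diet. Between them 5 of 9 genes were called, all lower in regain, at a background of 26.9% in either direction and 13% as lower. Adrb3 had a log2 fold change of -2.88 ± 0.50 (adjusted p = 0.000333), or 7.34-fold lower, with no overlap and a call under all 15 alternatives. Lipe had -1.06 ± 0.28 (adjusted p = 0.00851), also with no overlap (14.9% of names in that direction), and was called in 14 of 15 alternatives. The exception for Lipe was the fit on these 6 libraries alone (-1.09, adjusted p = 0.0543). Within the high and low Lars2 sets the differences in log2 CPM were -1.99 (2 libraries against 1) and -4.63 (1 against 2) for Adrb3, and -1.06 and -1.10 for Lipe. Of all names called there, 51.6% were higher in regain, against 76.2% with limma on log2(FPKM + 0.1) and 77.4% on log2(FPKM + 1), where 19283 names were tested. The median log2 fold change of all names was -0.07 in the edgeR fit and 0.03 and 0.01 on those FPKM scales. On log2(FPKM + 0.1) the share of higher calls also rose from 58.8% to 75.3% in loss against control12, from 57.4% to 70.2% in regain against control16 and from 75.2% to 94.1% in regain against gain4.

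Other markers moved in this comparison as well. The adipocyte sum was 28802 to 40865 CPM in regain and 60336 to 87653 CPM in maintenance, with 8 of 12 markers called lower and 1 higher. The macrophage sum was 4634 to 8932 CPM against 746.6 to 2905 CPM, with 8 of 10 called higher. All 9 liver transcripts, 4 of 9 tested epididymis and sperm markers and 2 of 5 mesothelium markers were called lower in regain. The part of these markers in the 5 calls was not tested.

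The 3 other calls in that comparison were less firm. Pnpla2 had -1.08 ± 0.36 (adjusted p = 0.0317), with maintenance library 3 inside the regain range. That call was lost without maintenance 1 (-0.95, adjusted p = 0.102), maintenance 2 (-0.86, 0.111), regain 2 (-0.99, 0.102) or regain 3 (-0.97, 0.121), and was -1.41 (adjusted p = 0.00642) without maintenance 3. Abhd5 had -0.94 ± 0.24 (adjusted p = 0.00740) and G0s2 -1.34 ± 0.39 (adjusted p = 0.0155), both below maintenance with no overlap. Without the liver-bearing maintenance library 3, Abhd5 was at -0.48 (adjusted p = 0.0597) and G0s2 at -0.76 (adjusted p = 0.135), so neither call stood in that fit. G0s2 was also not called without regain 2 (-1.30, adjusted p = 0.0536) or regain 3 (-1.30, 0.0606). With loss 1 and control12 3 left out beside maintenance 3, G0s2 was called and Abhd5 was not (-0.48, edgeR adjusted p = 0.0558). Plin1 had -0.77 ± 0.30 (adjusted p = 0.0569), or -0.46 without maintenance 3, and Mgll 0.07 ± 0.31 (0.891), or 0.48 without it. Plin1 lay below maintenance in every regain library, and groups lay apart downwards for 5 of the 9 genes, at a background of 14.9%.

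Regain against gain4 compares libraries of equal age that were both on the high-fat diet for their last 4 weeks. Adrb3 was lower in regain in every library (29.1 to 130 CPM against 187 to 541 CPM), with a log2 fold change of -1.84 ± 0.48 (adjusted p = 0.0368). It was 1 of 9 genes called, at a background of 5.49% in either direction and 1.36% as lower, and its groups lay apart as they did downwards for 10.4% of names. Of the 6 fits that left out 1 library, 1 kept the call, the one without gain4 3 (-2.12, adjusted p = 0.0128). The call was lost without gain4 1 (-2.06, adjusted p = 0.139), gain4 2 (-1.28, 0.169), regain 1 (-1.41, 0.0733), regain 2 (-2.06, 0.0543) or regain 3 (-2.17, 0.179). Lipe (-0.85 ± 0.28, adjusted p = 0.0717), Pnpla2 (-0.72 ± 0.36, 0.216) and Plin1 (-0.44 ± 0.29, 0.367) also lay lower in all regain libraries without passing the test. That made 4 of the 9 genes with groups apart downwards, beside the 10.4% of names. Within the high and low Lars2 sets the Adrb3 differences in log2 CPM were -2.13 (2 libraries against 1) and -2.94 (1 against 2). Abhd5 had a log2 fold change of -0.08 ± 0.24 (adjusted p = 0.878). The adipocyte sum was 28802 to 40865 CPM in regain against 51108 to 79800 CPM in gain4, with 1 of 12 markers called lower. The macrophage sum was 4634 to 8932 CPM against 2251 to 4501 CPM, with 1 of 10 called higher and 1 lower, and the part of either in the Adrb3 difference was not tested.

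By role, the median log2 fold changes in gain8 were -1.17 for the 3 receptors, -0.47 for the 3 lipases and -0.34 for the 3 regulators, with -0.02 over all tested names. In loss they were -0.89, -0.76 and -0.47 (all names -0.04), and in regain against control16 -0.94, -0.77 and -0.45 (all names -0.01). Each median is the value of 1 of 3 genes, and the receptor medians in gain8 and regain were those of the low-count Adra2a and Adrb1, so Adrb3 itself lay lower.

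The comparisons of maintenance, gain4 and regain share the control16 libraries. Side by side, the log2 fold changes of Adrb3 against control16 were 0.50, -0.54 and -2.38, those of Pnpla2 were -0.32, -0.68 and -1.40, and those of Lipe were 0.29, 0.08 and -0.77. Regain against loss called none of the 9 genes (0% of all names), and 0 by DESeq2 or limma, although DESeq2 called 174 of all names. At an unadjusted p under 0.05 there were 2 (Adrb3, -1.53 ± 0.48, and Adrb1, -1.08 ± 0.48), beside 1407 of 17821 names.

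Receptor and lipase were next compared within a library, as the log2 ratio of counts, which does not depend on library scaling. The Adrb3 to Pnpla2 ratio was -1.61 ± 0.15 (SD, n = 3) in control8 and -3.74 ± 0.23 in gain8, a difference of -2.13. Every gain8 library lay below every control8 library. In regain the log2 ratios were -5.78, -3.21 and -3.03, against -2.92, -2.45 and -3.00 in control16, also without overlap but by a narrow margin outside regain library 1 (difference -1.22). Against maintenance the difference in regain was -2.05. Each of these had an exact permutation p of 0.1, the smallest that 3 against 3 allows, and an adjusted p of 0.183 over 11 comparisons, so no ratio could pass a threshold of 0.05.

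In loss the Adrb3 to Pnpla2 log2 ratio was -2.40 ± 0.72, near control12 at -2.67 ± 0.03 (difference 0.27, exact permutation p = 0.7). Of the pair, Pnpla2 was called lower there and Adrb3 was not, but this does not show a difference between the 2 genes. The ratio also differed among normal-diet groups, at -2.07 ± 0.09 in initial, -1.61 ± 0.15 in control8, -2.67 ± 0.03 in control12 and -2.79 ± 0.30 in control16. Lipe and Pnpla2 kept a near-constant ratio between control8 and gain8 (-0.45 ± 0.08 and -0.47 ± 0.05, difference -0.02, exact permutation p = 0.7). That log2 ratio was not constant elsewhere. Against control16 it lay higher by 0.74 in gain4 (exact permutation p = 0.1), 0.65 in regain (0.2) and 0.70 in maintenance (0.3). It was also 0.37 higher in loss than in control12 (0.2) and 0.75 higher in control8 than in initial (0.1).

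The log2 ratio of lipase to inhibitor was highest in initial, the youngest group. The log2 ratio of Pnpla2 to G0s2 was 4.90 ± 0.11 in initial and 3.18 ± 0.21 in control8, a difference of -1.73 with no overlap (exact permutation p = 0.1, adjusted p = 0.55). Pnpla2 was at 4593, 3926 and 3975 CPM in initial and G0s2 at 167, 129 and 124 CPM, so the younger tissue lay higher for the lipase and lower for its inhibitor. The corresponding log2 fold changes, control8 against initial, were -0.82 ± 0.36 for Pnpla2 (adjusted p = 0.272) and 0.90 ± 0.39 for G0s2 (0.266). The older controls had higher log2 ratios than control8, 3.57 ± 0.26 in control12 and 3.87 ± 0.68 in control16 (control16 against control8 0.69, exact permutation p = 0.3), so the ratio had no single direction with age. In gain8 the log2 ratio was 3.04 ± 0.20 and overlapped control8, the plain count ratios being 9.10, 7.05 and 8.69 against 8.01, 8.65 and 10.7. The log2 ratio of Plin1 to Abhd5 was 2.67 ± 0.13 in initial and 3.60 ± 0.12 in control8 (difference 0.93, exact permutation p = 0.1, adjusted p = 0.55), but 3.01 ± 0.60 in control16, where libraries 1 and 2, at 2.64 and 2.68, lay within the initial range.

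**Figure D4:**
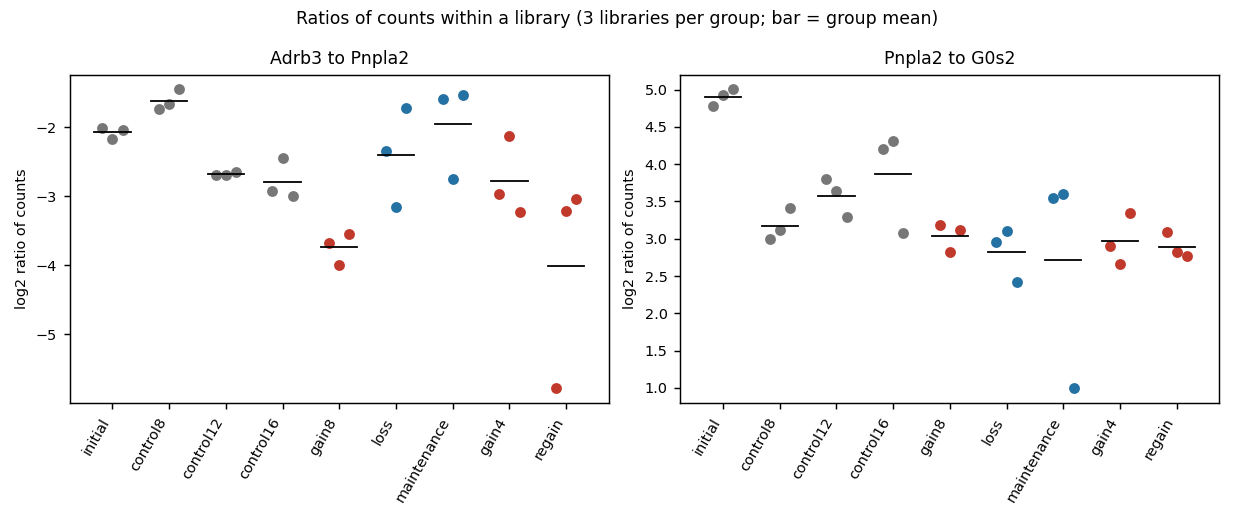
log2 ratios of counts within each library, by group (points are libraries, bars are group means, colours as for the FPKM plot). Adrb3 to Pnpla2 is -1.61 in control8 and -3.74 in gain8 on average, and Pnpla2 to G0s2 is highest in initial at 4.90.

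Adra2a, the inhibitory alpha-2A receptor, had 5 to 98 counts per library, or 0.168 to 3.01 CPM. The SE of its log2 fold change was at least 1.0 in every comparison, and none was called. Its levels followed the Lars2 sets. In the 15 high-Lars2 libraries it was at 0.878 to 3.01 CPM (median 2.07), and in the 12 low-Lars2 libraries at 0.168 to 0.864 CPM (median 0.370), with no overlap. The medians of the other 8 genes in the high set were 0.684 to 1.72 times those in the low set. Within the high and low sets the Adra2a differences in log2 CPM were -1.53 (1 library against 1) and -0.66 (2 against 2) in gain8 against control8. In loss against control12 they were -1.10 (2 against 2) and -1.27 (1 against 1). Against control16 they were -0.60 (2 against 2) and 0.01 (1 against 1) in regain. In gain4 they were 0.03 (1 against 2) and -0.04 (2 against 1), and in maintenance 0.07 and -0.65. In regain Adra2a was at 0.374, 2.44 and 0.878 CPM and in control16 at 1.72, 2.97 and 0.372 CPM. The lone low value of control16 belongs to its low-Lars2 library, as does that of regain, and what separates the sets was not tested.

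**Figure D5:**
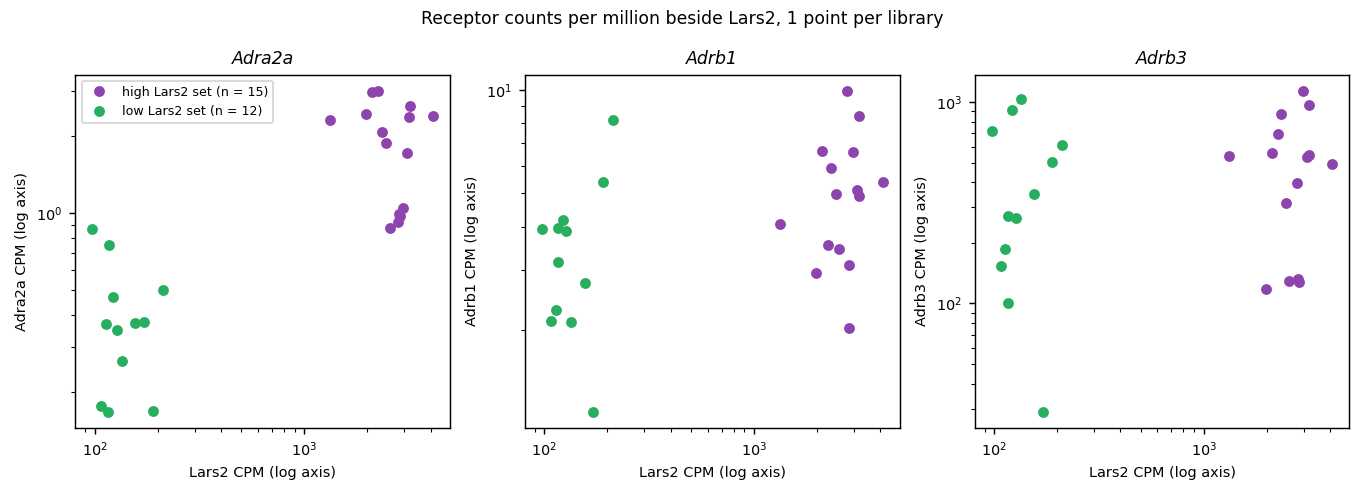
CPM of Adra2a, Adrb1 and Adrb3 against Lars2 CPM, 1 point per library, both axes logarithmic. Adra2a separates the 15 high and 12 low libraries (0.878 to 3.01 against 0.168 to 0.864 CPM), while Adrb1 and Adrb3 overlap between them.

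Adrb1, the beta-1 receptor, was never called in the 11 comparisons. It was highest by group mean in control12 (8.17, 8.40 and 5.00 CPM) and lowest in regain, and every group overlapped the next in order. Loss libraries ran from 2.03 to 9.96 CPM, which spans most of the range of all 27. In the same 11 comparisons Adrb3 was called lower in 4, Pnpla2 in 3, and Lipe, Abhd5 and G0s2 in 1 each; no gene of the 9 was called higher in any.

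Among other alpha-adrenergic receptors, Adra1d, an alpha-1 receptor, rose in gain8 (log2 fold change 1.41 ± 0.32 SE, edgeR adjusted p = 0.00394, from 6.36 to 16.9 CPM). Adra2c was called lower in loss (-3.35 ± 1.16, adjusted p = 0.0454) at means of 0.135 and 1.41 CPM, and a fold at that level depends on the prior count. No count over the list of other adrenergic receptors is given here.

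The steps between receptor and lipase were tested with a list of 20 genes of G proteins, adenylyl cyclases, protein kinase A, phosphodiesterases and receptor desensitisation. In gain8 1 of 20 rose and 2 fell, where 21.5% of all names were called, with a median log2 fold change of 0.13. In loss 2 rose and 2 fell (median 0.12; 20% of all names called), and in regain against control16 3 rose and 3 fell (median -0.03; 21.7%). In regain against maintenance 8 rose and 2 fell (median 0.16, against -0.07 over all tested names). Of all names 26.9% were called there, and 51.6% of those calls were higher. Pde3b, the phosphodiesterase through which insulin lowers cyclic AMP, fell in gain8 (-1.19 ± 0.31, adjusted p = 0.00891), in loss (-1.34 ± 0.31, 0.00469) and in regain (-1.28 ± 0.31, 0.00529). It was at 183 to 287 CPM in gain8 and 447 to 646 CPM in control8.

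Genes that rose in this list included Arrb2, an arrestin that ends receptor signalling (0.86 ± 0.27, adjusted p = 0.0278, in gain8). Adcy3, an adenylyl cyclase, rose in regain against gain4 (1.26 ± 0.26, adjusted p = 0.0279) and against maintenance (1.32 ± 0.26, 0.000838). Adrbk1, a kinase that phosphorylates active receptors, rose in regain against control16 (0.61 ± 0.17, adjusted p = 0.0136). Gnai1, an inhibitory G protein subunit, fell in loss (-1.11 ± 0.30, adjusted p = 0.0118).

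Among 13 other receptors that regulate lipolysis, 1 rose and 1 fell in gain8, 1 fell in loss, 1 rose and 1 fell in gain4, and 4 fell in regain against control16, where 21.5%, 20%, 5.82% and 21.7% of all names were called. Their median log2 fold changes were -0.35, -0.52, -0.05 and -0.45. Against maintenance, 0 rose and 5 fell in regain (median -0.75), where 26.9% of all names were called in either direction and 13% as lower. Insr, the insulin receptor, whose signal restrains lipolysis, fell in gain8 (-1.15 ± 0.18, adjusted p = 0.000319), loss (-0.78 ± 0.18, 0.00491), gain4 (-0.89 ± 0.18, 0.0148) and regain (-1.24 ± 0.18, 9.61e-05). Adora1, an antilipolytic adenosine receptor, rose in gain8 (0.88 ± 0.30, adjusted p = 0.0401) and gain4 (1.17 ± 0.30, 0.0310). The glucagon receptor Gcgr (-2.51 ± 0.68, adjusted p = 0.0112) and the GIP receptor Gipr (-1.53 ± 0.48, 0.0269) fell in regain.

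Of 20 other genes of the lipid droplet and of lipid release, 4 rose and 4 fell in gain8, 4 rose and 4 fell in loss, 4 rose and 6 fell in regain against control16, and 1 rose in gain4, beside 21.5%, 20%, 21.7% and 5.82% of all names called. Their median log2 fold changes were 0.06, -0.50, -0.29 and 0.26. Against maintenance, 2 rose and 8 fell in regain (median -0.90), where 26.9% of all names were called in either direction and 13% as lower. Lipa, the lysosomal acid lipase, rose by 2.53 ± 0.37 on the log2 scale in gain8 (adjusted p = 0.000162), by 3.01 ± 0.37 in loss (3.33e-05) and by 2.55 ± 0.37 in regain (7.26e-05), beside the higher macrophage sums given above. Plin2, a droplet coat protein found in many cell types, rose in gain8 (2.25 ± 0.30, adjusted p = 0.000114), where Plin1 was not called in the same fit. Ces1f, a carboxylesterase, fell in gain8 (-3.21 ± 0.69, adjusted p = 0.00254). Plin2 also rose in loss (1.44 ± 0.29, adjusted p = 0.00159) and regain (1.44 ± 0.29, 0.00132), and Plin3, another coat protein, rose in gain4 (0.61 ± 0.13, adjusted p = 0.0172).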

How the data were processed

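The 27 libraries were prepared with TruSeq RNA reagents, per the labels. The submitters' processing notes name Trimmomatic 0.33, TopHat2 2.0.13 and HTSeq 0.6.0, and the builds mm10 and GRCm38. The deposited values are raw read counts per gene, and the authors' FPKM, which were used to compare levels between genes. A further 156 rows shared an earlier row's name and were left out.

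Of 43460 names, 17821 passed edgeR's filterByExpr (minimum count 10, minimum total 15); all 9 genes passed. One model of group means over all 27 libraries, scaled by TMM, was fitted with edgeR 4.0.16 in R 4.3.3 (quasi-likelihood test, Benjamini-Hochberg adjustment over all tested names, threshold 0.05), after a test on simulated data. The SE is the fold change divided by the root of its F statistic. Ratios had two-sided exact permutation tests, adjusted over 11 comparisons. Alternatives used DESeq2 1.42.0 and limma 3.58.1 (log2 of FPKM plus 1 or 0.1). Replicates of a group differed beyond counting noise (chi-square per degree of freedom 11.9 to 534). Samples of equal number did not deviate together throughout (r from -0.18 to 0.38, and 0 of 11 comparisons with every r above 0.1). Some pairs did so in part, as in regain against gain4 (r = 0.31, 0.21 and 0.04) and control16 against control8 (-0.02, 0.34 and 0.32).

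All 9 genes are named in the text. From each fixed list at most 3 genes with the smallest adjusted p per comparison are named, plus those needed to place a gene. For each gene the 3 genes most alike by Pearson r over 27 libraries (mean of at least 5 CPM, no predicted names) are described. The genes and lists were chosen with earlier results of these data known. A gene of the receptor list is not reported here.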

Additional observations from a re-analysis of the deposited data

How the results depend on the processing

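Of 1863 values of single genes under an alternative, 1689 kept their direction and side of the threshold, 33 calls were lost and 32 gained. A further 108 values within 1 SE of 0, called under neither setting, changed sign, as did Lipe in regain against loss without loss 2 (0.13, adjusted p = 0.921; range -0.62 to 0.13 when 1 library was left out); no called value did. The number of the 9 genes called was 1 in gain8 against 4 with only the groups compared and 3 without maintenance 3, loss 1 and control12 3. In loss it was 1 against 0 with no low-count filter, with only the groups compared or with limma on log2(FPKM + 0.1), and 2 with DESeq2 or with the Lars2 set as a term. Leaving out 1 library gave 0 to 3. In gain4 it was 0 against 1 without those 3 libraries, and in control8 against initial 0 against 2 without them and 3 with only the groups compared. In regain against control16 it was 2 against 3, with Lipe added, under RLE scaling, DESeq2, only the groups compared or the Lars2 term, 5 without the 3 libraries, and 1 to 2 when 1 library was left out. In regain against gain4 it was 1 against 0 with no filter, with only the groups compared or with the replicate block, 2 with DESeq2 and 5 without the 3 libraries, and 0 to 2 when 1 library was left out. In regain against maintenance it was 5 against 1 with only the groups compared, 3 with limma on either FPKM scale, 4 without the 3 libraries, 6 with RLE scaling or DESeq2, and 3 to 5 when 1 library was left out. The calls over all names moved too. With only the groups compared, 3833 of 17821 became 5898 of 16375 in gain8, and 3564 became 1096 of 15812 in loss. In regain, 3864 became 4170 of 16058 against control16 and 4790 became 1580 of 15997 against maintenance. Regain against gain4 went from 978 to 0 of 16002, or to 239 of 30052 with no filter. DESeq2 called 2120 names there, 4391 in loss, 4602 in regain against control16 and 5387 against maintenance. The cause of these shifts was not tested. The replicate number as a block took Adrb3 in regain against gain4 to an adjusted p of 0.0510 and changed no other call of the 9 genes; the numbers were not shown to pair the libraries. Depth limits Adra2a, with as few as 5 counts in a library, more than the other 8 genes.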

Other observations

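Across the 27 libraries the genes most like each of the 9 in log2 CPM differed from gene to gene, and are given as a description over libraries that share diet groups and processing. Adrb3 was closest to Ffar4, a long-chain fatty acid receptor (r = 0.94), Agt, encoding angiotensinogen (0.92), and Cfd, encoding adipsin (0.92). Pnpla2 was closest to Sult1a1 (0.96), Sh3glb1 (0.95) and Rbms2 (0.94). Lipe was closest to Rgcc (0.94), Car3, a carbonic anhydrase abundant in fat cells (0.94), and Tmem216 (0.93). Plin1 was closest to Scd1, a fatty acid desaturase (0.89), Cachd1 (0.88) and Gnb5 (0.87). Mgll was closest to Dmtn (0.89), Ehd2 (0.84) and Gid4 (0.79).

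Abhd5 was closest to Aacs (0.92), Scrn3 (0.90) and Gpam, an enzyme of triglyceride synthesis (0.90), and the first fell to 0.85 without maintenance library 3. G0s2 was closest to Bphl (0.87), Myl1 (0.85) and Nipsnap1 (0.85), the last at 0.78 without that library. Adra2a was closest to Clec14a, an endothelial gene (0.92), Gja4, encoding a connexin of vessel walls (0.88), and Jph2 (0.88). Adrb1 was closest to Mmp28 (0.82), Btnl9 (0.80) and Nova2 (0.80).

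Among the 9 genes themselves the closest pairs were Lipe with Plin1 (r = 0.86), Lipe with Pnpla2 (0.80) and G0s2 with Plin1 (0.76). Adrb3 had r = 0.73 with Lipe and 0.71 with Pnpla2 but 0.07 with Mgll. After subtracting group means, Lipe with Plin1 was 0.84, Mgll with Plin1 0.84 and Adrb3 with Pnpla2 0.33. Abhd5 with Pnpla2 was 0.44 over 27 libraries and 0.75 without maintenance library 3.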
